A study of Mus musculus with 8 samples.

Results

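The subject is a group of 9 genes that act on the extracellular matrix of muscle: the plasminogen activators Plat and Plau, the serpin Serpine2, the metalloproteases Mmp2, Mmp3 and Mmp14, and the tissue inhibitors of metalloproteases Timp1, Timp2 and Timp3. They were taken by name from the 57180 genes of the deposited tables, and all 9 were found and passed the filter on low counts. Serpine2 and Mmp3 were picked because they differed within the same-numbered control and RhoA het libraries 5, 7 and 8, so their differences between the groups are described without a test. The other 7 genes were not picked by name for a difference. No member is an inhibitor of plasminogen itself: Plat and Plau activate it, and Serpine2 inhibits its activators, plasmin and thrombin.

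RNA was sequenced from mouse muscle stem cells that had been sorted by flow cytometry and used fresh, without culture. The control group held 4 libraries labelled WT (replicates 2, 5, 7 and 8). The RhoA het group held 4 libraries (replicates 5, 6, 7 and 8) from mice with 1 floxed RhoA allele in their stem cells, which the titles call RhoA het and the genotype field calls a knockdown. RhoA is a small GTPase that controls actin contractility, and the stated purpose was to look for expression changes when its activity is reduced. The Cre driver, the age of the mice, whether the controls carried Cre and whether a library came from 1 mouse or a pool are not given in the sources used here, so p-values measure only the spread between these libraries.

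Muscle stem cells lie between the fibre and its basal lamina, and secreted proteases let them remodel that lamina and release growth factors held in it. Plat and Plau cleave plasminogen to plasmin, which degrades fibrin and can activate latent metalloproteases. Serpins such as Serpine2 trap the activators and plasmin, while TIMPs bind the catalytic site of metalloproteases. Mmp14 and Timp2 also act together at the cell surface, where they recruit and activate the Mmp2 proenzyme.

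The RefSeq promoter table (GRCm38.p6) held 6 of the 9 genes: Serpine2, Mmp3, Mmp14, Timp1, Timp2 and Timp3. The promoters of Serpine2 (chr1:79858616-79858915, minus strand) and Mmp3 (chr9:7445572-7445871, plus strand) are shown because these genes carry the differences within pairs described next. Each runs 5′ to 3′ from 250 bases before to 50 bases after the annotated start, and capitals mark matches on either strand. The AP-1 motif was searched as TGANTCA. The TATA box was searched with the letters TATAAA. The GC box was searched with the letters GGGCGG.
Serpine2: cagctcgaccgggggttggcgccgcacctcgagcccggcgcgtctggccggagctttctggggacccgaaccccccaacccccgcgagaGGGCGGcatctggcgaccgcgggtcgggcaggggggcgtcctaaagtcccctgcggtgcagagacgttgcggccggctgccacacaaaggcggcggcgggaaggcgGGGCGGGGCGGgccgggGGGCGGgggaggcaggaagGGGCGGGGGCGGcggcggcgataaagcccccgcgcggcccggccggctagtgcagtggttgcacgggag
Mmp3: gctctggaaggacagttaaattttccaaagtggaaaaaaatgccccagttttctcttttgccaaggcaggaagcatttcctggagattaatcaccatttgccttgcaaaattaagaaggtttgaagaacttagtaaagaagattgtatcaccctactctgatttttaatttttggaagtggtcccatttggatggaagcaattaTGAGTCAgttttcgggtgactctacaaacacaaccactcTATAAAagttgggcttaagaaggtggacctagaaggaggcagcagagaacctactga

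The sequences differed in kind. The Serpine2 window had a GC content of 77.7% with 41 CpG dinucleotides and 6 GC boxes, and neither an AP-1 motif nor a TATA box. The Mmp3 window had a GC content of 40%, 1 CpG, 1 AP-1 motif at position -46 and 1 TATA box at position -7 from the annotated start, and no GC box. Of all 32851 promoter windows of this length, 7.81% held the AP-1 motif, 13.6% the TATA box and 35.7% the GC box, and their median GC content was 52.7%. Mmp3 was the only one of the 6 with an AP-1 motif or a TATA box. The other 5 held between 1 and 6 GC boxes each, those of Mmp14 and Timp3 numbering 2 and those of Timp1 and Timp2 numbering 1. None of the 6 windows held a CArG box, the site of serum response factor (1.63% of all windows), and 1, that of Timp1, held GGAATG, the core of a TEAD site (14.7%). GC boxes can share a base where they adjoin, and a match describes letters in this window only.

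Libraries held 19138763 to 25606342 assigned fragments. Rhoa, the targeted gene, had a mean CPM of 324.6 ± 46.3 in the control libraries against 264.8 ± 14.4 in the RhoA het ones (SD, n = 4 each; CPM are counts scaled to a common TMM-adjusted library size), a log2 fold change of -0.29 that did not pass after adjustment over all genes (edgeR quasi-likelihood test, adjusted p 1). The stem cell marker Pax7 was at 46.6 to 100.1 TPM in every library, whereas Pdgfra, of fibro-adipogenic cells, reached at most 4.17 TPM and Ptprc, of leukocytes, at most 0.742 TPM (TPM are counts per gene length scaled to a common total). Other markers of fibro-adipogenic cells were abundant, since the 10 listed genes summed to 4084 to 9088 TPM in control and 6670 to 8954 TPM in RhoA het. The 9 immune markers summed to 304.4 to 826.9 TPM in control and 229.3 to 808.3 TPM in RhoA het. Most of that came from Lyz2, at 209.1 to 817.5 TPM. RhoA het replicate 6 stood apart by endothelial markers, whose 10 genes summed to 460.5 TPM there and to 42.3 to 121.8 TPM elsewhere, with Pecam1 at 67.8 TPM against at most 8.63 TPM. Its 5 erythroid markers summed to 1284 TPM, against 8.68 to 623 TPM elsewhere. In these same tables control replicate 2 and RhoA het replicate 6 read Xist at 0.038 and 0.057 TPM and the Y-linked Ddx3y at 300.4 and 329.7 TPM, against Xist of at least 33.7 TPM in the other 6 libraries. In bulk RNA, fewer cells of a type and less RNA per cell cannot be told apart.

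Values by library are given in the order of the replicate numbers, 2, 5, 7, 8 for control and 5, 6, 7, 8 for RhoA het. Of the 9 genes, Plat and Mmp2 had the highest levels per length and Mmp3 and Mmp14 the lowest. Over the 8 libraries the mean levels were 294.7 ± 64.9 TPM for Plat, 282 ± 168.5 for Mmp2, 159.4 ± 43.4 for Timp3, 68.7 ± 26.2 for Serpine2, 66.8 ± 14 for Timp2, 58 ± 12.5 for Timp1, 44.3 ± 12.5 for Plau, 32.3 ± 63.2 for Mmp3 and 25.5 ± 7.37 for Mmp14 (SD, n = 8). Neighbours in this order mostly did not differ beyond their spread. Plat exceeded Mmp2 in 5 of 8 libraries, Mmp2 exceeded Timp3 in 5, Serpine2 exceeded Timp2 in 5, and Timp2 exceeded Timp1 and Timp1 exceeded Plau in 6 each. The step from Timp3 down to Serpine2 held in 8 of 8 libraries. The mean of Mmp3 misleads, because its median was 12.2 TPM and it lay above Mmp14 in only 1 library. The exons of Mmp2, Timp2 and Timp3 share 2020, 1524 and 1733 bases with Gm45472, Cep295nl and Syn3. Fragments in shared bases were not assigned to either gene under the counting options in the header, so the levels of these 3 genes can be too low.

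**Figure D1:**
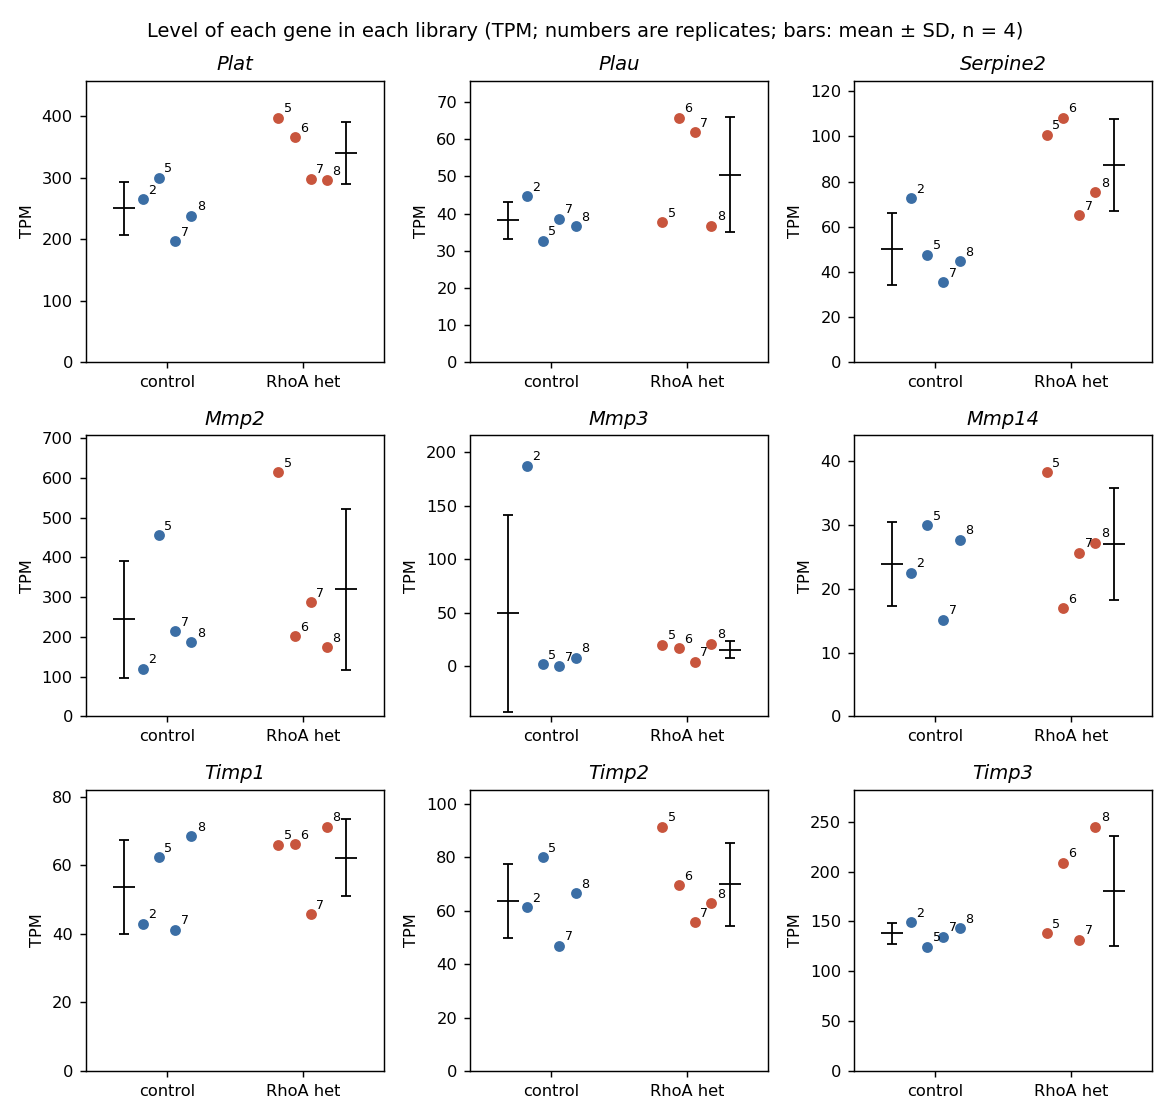
Level of each of the 9 genes in TPM (vertical axes, each panel with its own scale) in the 4 control and 4 RhoA het libraries, with each point labelled by its replicate number and black bars for the mean ± SD (n = 4). Mmp3 is at 187.4 TPM in control replicate 2 and at most at 20.8 TPM in the other 7 libraries.

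Serpine2 (ENSMUSG00000026249.11; mm39 chromosome 1, 79771914 to 79838897, minus strand) encodes protease nexin, a secreted serpin that binds heparan sulfate and inhibits thrombin, plasmin and both plasminogen activators. The control libraries had 72.5, 47.6, 35.5 and 44.8 TPM. The RhoA het libraries had 100.7, 108.3, 65 and 75.2 TPM. The highest control library thus lay above the lowest RhoA het library, and without control replicate 2 the groups did not overlap. In CPM control replicate 2, at 232.6, lay above RhoA het replicates 7 and 8, at 161.9 and 187.6. Mean CPM was 138.1 ± 64.5 in the control libraries against 220.4 ± 57.8 in the RhoA het ones (SD over 4), which is 0.67 higher on the log2 scale of the fit. Within the same-numbered libraries, by which the gene was picked, RhoA het was 2.18 times control for number 5, 1.84 times for number 7 and 1.55 times for number 8. By rank among the 9 genes, Serpine2 was the fourth in all RhoA het libraries and ranged from 5 to 7 in control. Its rank of 5 in control replicate 2 depended on Mmp3, which had rank 2 there and rank 9 in every other library. The log2 fold change was 1.05 without control replicate 2 and 0.51 without RhoA het replicate 6, where Serpine2 was highest. In CPM each of these libraries was the highest of its group for Serpine2, Plat and Plau. Both were low in Xist and high in Ddx3y. The endothelial and erythroid markers were highest in RhoA het replicate 6, while control replicate 2 had the lowest endothelial sum, 42.3 TPM. The part of these markers in the result was not tested.

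Plat (ENSMUSG00000031538.7; mm39 chromosome 8, 23247743 to 23272860, plus strand) encodes tissue plasminogen activator. The control libraries had 265, 299.9, 196.2 and 238.3 TPM, and the RhoA het libraries 397.7, 366.1, 298.3 and 296.2 TPM. In TPM the groups overlapped only in that control replicate 5 lay just above RhoA het replicates 7 and 8, and in CPM control replicate 2, at 640.1, lay above these libraries. Mean CPM was 504.4 ± 112.5 in the control libraries against 643.2 ± 99.1 in the RhoA het ones (SD over 4). The log2 fold change was 0.35 (SE 0.19, interval of 95% from -0.071 to 0.77), which did not pass the threshold (p 0.0935 before and 1 after adjustment in edgeR; two-sided exact permutation p 0.143). Within the pairs Plat was higher in RhoA het by 1.36, 1.52 and 1.14 times for numbers 5, 7 and 8. When the number entered the edgeR fit as a block, its unadjusted p was 0.0101 and its adjusted p over all genes 0.727 (log2 fold change 0.39). In that fit 5.26% of all genes had an unadjusted p under 0.05. The fold change without control replicate 7, where Plat was lowest, was 0.22 (log2).

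Plau (ENSMUSG00000021822.4; mm39 chromosome 14, 20886728 to 20893453, plus strand) encodes urokinase, the activator that works at the cell surface when bound to its receptor Plaur. The control libraries had 44.6, 32.7, 38.7 and 36.6 TPM, and the RhoA het libraries 37.6, 65.8, 61.8 and 36.7 TPM. RhoA het replicates 6 and 7 lay above every control library, while replicates 5 and 8 lay inside the control range. The log2 fold change was 0.31 (SE 0.27; edgeR adjusted p 1) and was 0.11 without RhoA het replicate 6, which also held the most endothelial and erythroid RNA. Number 8 went the other way from numbers 5 and 7, with RhoA het at 0.922 times control. Plaur itself was abundant, at 401.9 ± 168.1 TPM in control and 430.3 ± 222.2 TPM in RhoA het (SD, n = 4 each).

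Mmp3 (ENSMUSG00000043613.9; mm39 chromosome 9, 7445822 to 7455975, plus strand) encodes stromelysin, a broad protease that cleaves proteoglycans, laminin and fibronectin. The control libraries held 2474, 19, 0 and 99 fragments, or 187.4, 1.75, 0 and 7.89 TPM. The RhoA het libraries held 219, 204, 49 and 219 fragments, or 19.9, 16.6, 4.06 and 20.8 TPM. The control group therefore contained both extremes, and the RhoA het libraries lay between them. A count of 0 in control replicate 7 allows up to 0.112 CPM (3 counts, counting error only). The direction of the group difference turned on 1 library and on the scale of the fit. In edgeR the log2 fold change was -2.02 over 8 libraries and 2.19 without control replicate 2. With all 8 libraries it was 2.28 in limma-voom, and 0.78 and 1.67 in limma on log2(TPM + 1) and log2(TPM + 0.1). Within the pairs, by which the gene was picked, RhoA het was 11.7 times control for number 5, at least 19.5-fold higher for number 7 and 2.42 times for number 8, and the fit with the replicate block gave a log2 fold change of 2.73. Mean CPM was 34.1 ± 64.4 in the control libraries against 8.36 ± 4.16 in the RhoA het ones (SD over 4). Most of the control mean came from replicate 2, in which Mmp3 was the second most abundant of the 9 genes while it was the ninth in the other 7.

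The sum of 6 tendon cell markers was 245.8 and 253.8 TPM in RhoA het replicates 6 and 8, where Mmp3 was at 16.6 and 20.8 TPM. It was highest in control replicate 2, at 267.2 TPM, and control replicate 2 was the highest library for 3 of the 6 markers. Its sum of fibro-adipogenic markers, 6145 TPM, lay inside the range of the other libraries. It was the highest library for 1 of these 10 genes, Lum, at 125.4 TPM against 18.6 to 94 TPM elsewhere. Their part in the Mmp3 level was not tested.

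Mmp2 (ENSMUSG00000031740.9; mm39 chromosome 8, 93553919 to 93580048, plus strand) encodes gelatinase A, which degrades collagen IV of basal laminae. The control libraries had 120.3, 456.3, 215 and 186.3 TPM, and the RhoA het libraries 614.4, 202.5, 287.5 and 173.6 TPM. Both libraries numbered 5 were high, each above every library of any other number, and the groups overlapped. The log2 fold change was 0.35 (SE 0.42; edgeR adjusted p 1), and it was -0.14 without RhoA het replicate 5. The sum of 10 cell cycle markers was also highest in the libraries numbered 5, at 270.4 and 241.4 TPM in control and RhoA het against 121.4 to 149.8 TPM elsewhere, and Mki67 was at 20.5 and 13 TPM against at most 1.16 TPM. Of the fibro-adipogenic markers, Col3a1 was at 2485 and 1828 TPM there against 394.8 to 876.1 TPM elsewhere. Col1a1 was at 1717 and 1485 TPM against 164.5 to 534.7 TPM, while Dcn was at 176.2 and 320.8 TPM against 270.8 to 1141 TPM. Their part in the Mmp2 level was not tested.

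Mmp14 (ENSMUSG00000000957.12; mm39 chromosome 14, 54669069 to 54682821, plus strand) encodes the membrane-anchored metalloprotease that activates Mmp2. The control libraries had 22.6, 30, 15.2 and 27.7 TPM, and the RhoA het libraries 38.3, 17, 25.7 and 27.2 TPM. The groups overlapped almost entirely. The log2 fold change was 0.079 (SE 0.26; edgeR adjusted p 1) and changed sign, to -0.11, without control replicate 7 and also without RhoA het replicate 5. RhoA het replicate 6 was the lowest of its group for Mmp14 and the highest for Plat, Plau and Serpine2 in CPM.

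Timp3 (ENSMUSG00000020044.14; mm39 chromosome 10, 86136236 to 86185370, plus strand), the TIMP that binds the matrix, was the most abundant, with 149.2, 124.6, 134.8 and 143.3 TPM in the control libraries. The RhoA het libraries had 138, 208.8, 131.8 and 245.2 TPM, so that replicates 6 and 8 lay above all control libraries and the others within their range. Its log2 fold change was 0.30 (SE 0.25; edgeR adjusted p 1; two-sided exact permutation p 0.429) and was 0.12 without RhoA het replicate 8. The 7 mural cell markers were also highest in RhoA het replicate 8, at 2319 TPM against 584.3 to 1362 TPM elsewhere; their part in the result was not tested.

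Timp2 (ENSMUSG00000017466.11; mm39 chromosome 11, 118191887 to 118246566, minus strand), which binds Mmp14 to present the Mmp2 proenzyme, ranged from 46.9 to 80.1 TPM in control and from 55.6 to 91.5 TPM in RhoA het. Its log2 fold change was 0.045 (SE 0.20; edgeR adjusted p 1), and it turned to -0.10 without control replicate 7 and to -0.080 without RhoA het replicate 5. Timp1 (ENSMUSG00000001131.12; mm39 chromosome X, 20736405 to 20740974, plus strand), the soluble TIMP induced by cytokines, had 43, 62.3, 41.2 and 68.5 TPM in the control libraries. The RhoA het libraries had 66, 66.2, 45.7 and 71.3 TPM. Both libraries numbered 7 were low, and so was control replicate 2. Its log2 fold change was 0.14 (SE 0.22; edgeR adjusted p 1), and it was 0.0055 without control replicate 7 and 0.29 without control replicate 8. Although Timp1 is X-linked, the libraries low in Xist, control replicate 2 and RhoA het replicate 6, lay inside the range of the others. Timp1 lies within the span of Syn1 on the opposite strand but shares no exon bases with it.

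Summed by family, the metalloproteases came to 330.3, 488, 230.2 and 221.9 TPM in the control libraries and to 672.6, 236, 317.3 and 221.6 TPM in the RhoA het libraries. The TIMPs came to 253.5, 267, 222.9 and 278.5 TPM and to 295.5, 344.5, 233.1 and 379.4 TPM. The ratio of TIMP to metalloprotease RNA was 0.884 ± 0.301 in control and 1.09 ± 0.598 in RhoA het (SD, n = 4 each), a difference smaller than the spread in either group. It was lowest in both libraries numbered 5, at 0.547 and 0.439, where Mmp2 was high. Mmp3 made up 56.7% of metalloprotease TPM in control replicate 2 and at most 9.37% in any other library. Plat and Plau together summed to 288 ± 42.6 TPM in control and 390.1 ± 51.5 TPM in RhoA het. Their ratio to Serpine2 was 4.27, 6.98, 6.62 and 6.14 in the control libraries and 4.32, 3.99, 5.54 and 4.43 in the RhoA het libraries. It was lower in RhoA het for each shared number, and Serpine2 had been picked on those pairs. Control replicate 2 lay among the RhoA het libraries.

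**Figure D2:**
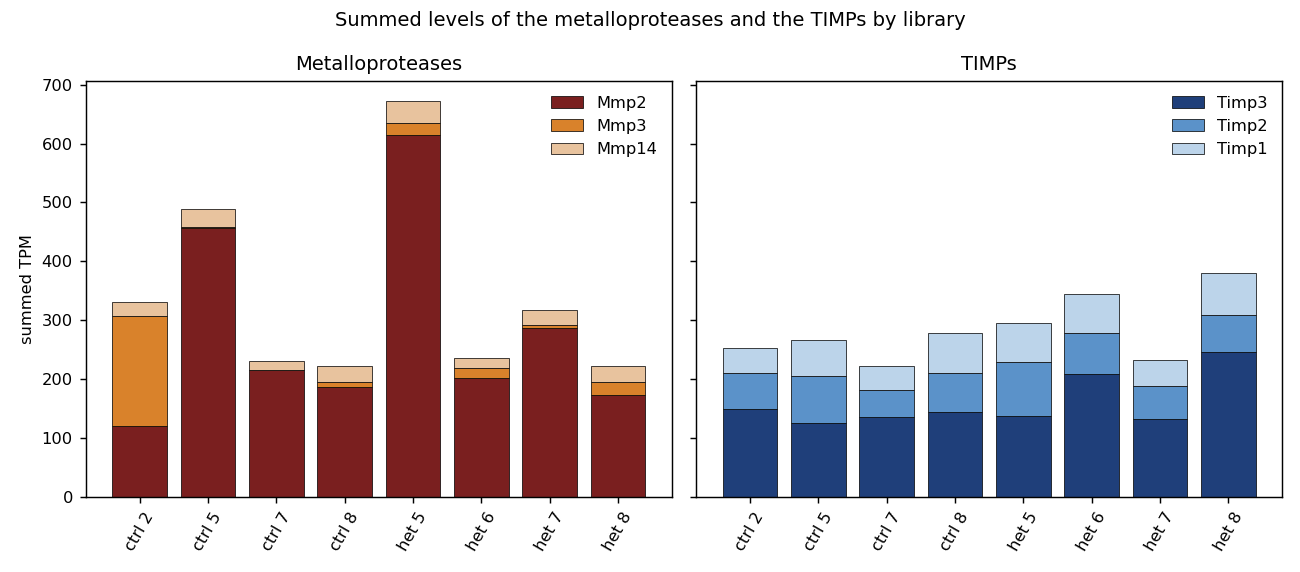
Stacked levels in TPM (vertical axis, the same in both panels) of the 3 metalloproteases and the 3 TIMPs in each library (horizontal axis). Mmp2 makes the bars of both libraries numbered 5 the tallest on the left, and Mmp3 is visible as a large block only in control replicate 2.

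Across all genes, 0 of 15660 (0%) were called at an adjusted p under 0.05 in the comparison over 8 libraries, and 0 of the 7 members not picked were called (edgeR quasi-likelihood test; 0 of 7 also in the DESeq2 Wald test). At an unadjusted p under 0.05 the share was 2.38% over all genes and 0 of the 7 members in edgeR. All 7 had a log2 fold change above 0, with a median of 0.30, where 49.9% of all genes were above 0 with a median of -0.00071. The median of the 7 fell to between 0.12 and 0.29 when single libraries were left out, with 0.12 without RhoA het replicate 8 and 0.13 without RhoA het replicate 5. Markers of several other cell types were also higher in the RhoA het mean (TPM): 9 of 10 fibro-adipogenic, 10 of 10 endothelial, 7 of 7 mural, 5 of 5 erythroid and 8 of 9 immune genes. The counts were 5 of 9 for stem cell, 3 of 5 for Schwann, 2 of 6 for tendon cell and 0 of 8 for myofibre genes. RhoA het replicate 6 was the highest library for 10 of the 10 endothelial, 5 of the 5 erythroid and 6 of the 9 immune genes. The immune gene that was not higher, Lyz2, made up most of the sum of its list. The part of these markers in the direction of the 7 members was not tested. With the replicate block, 2 genes of 15714 (0.0127%) were called, none of them a member or another gene of the pathway, and the 7 were again all above 0 with a median of 0.25, where 46.2% of all genes were. The groups overlapped over 8 libraries in CPM for all 9 members; without overlap were 1.02% of genes higher and 0.792% lower in RhoA het. Within the pairs, 1 of the 7 members, Plat, was higher in RhoA het in 3 of 3, where 13.6% of all genes were. The other 6 were higher in 2 of 3. Number 8 was the exception for Plau, Mmp2, Mmp14, Timp1 and Timp2, with RhoA het at 0.857 to 0.958 times control, and number 7 for Timp3. In the 6 libraries of the pairs, Plat and Serpine2 did not overlap between the groups in CPM (Plat did in TPM), where 3.52% of genes were higher in RhoA het without overlap. For Serpine2 and Mmp3 these counts follow from how they were picked.

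**Figure D3:**
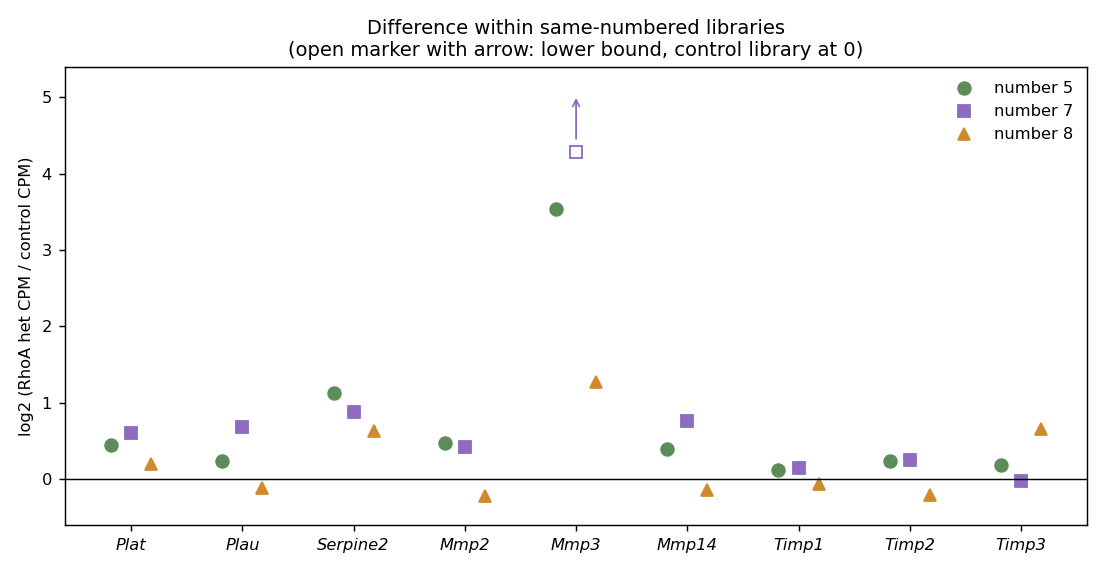
Log2 ratio of RhoA het to control CPM (vertical axis) for each gene (horizontal axis) within the same-numbered libraries 5, 7 and 8, with an open marker and arrow for a lower bound. Plat, Serpine2 and Mmp3 lie above 0 for all 3 numbers, and number 8 lies below 0 for Plau, Mmp2, Mmp14, Timp1 and Timp2.

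**Figure D4:**
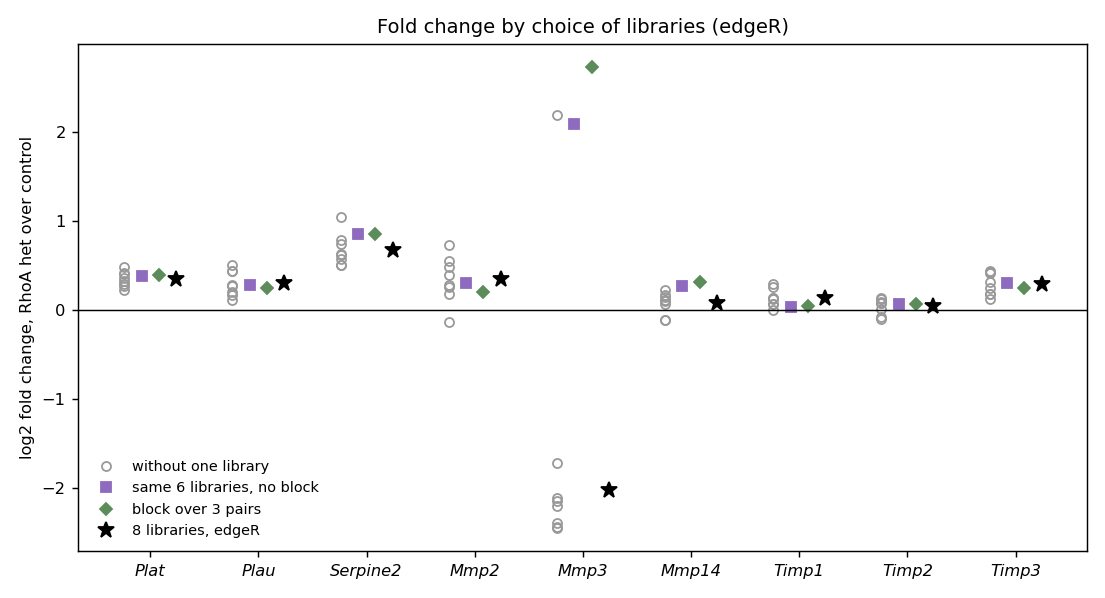
Log2 fold change of each gene (vertical axis, RhoA het over control, edgeR) over 8 libraries (star), over the 6 libraries of the pairs with the block (diamond) or without it (square), and without 1 library at a time (open circles). Mmp3 changes sign with control replicate 2, and the values of Serpine2 lie between 0.51 and 1.05. The 6 libraries leave out control replicate 2 and RhoA het replicate 6, which are low in Xist.

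Much of the variation among the 9 genes belonged to single libraries. Control replicate 7 was the lowest of all 8 libraries in CPM for 6 of the 9 genes, namely Plat, Serpine2, Mmp3, Mmp14, Timp1 and Timp2. That library also had the highest sum of 11 dissociation response genes, 42931 TPM against 20263 to 36684 TPM elsewhere, and was the highest library for 5 of the 11, among them Fos at 8511 TPM against at most 5932 TPM, whereas Hspa1a was at 1295 TPM there against 1096 to 5965 TPM elsewhere. It had the lowest sum of fibro-adipogenic markers, 4084 TPM. Their part in the low values was not tested. In CPM, RhoA het replicates 5 and 6 were each the highest for 3 genes: Mmp2, Mmp14 and Timp2 in replicate 5, and Plat, Plau and Serpine2 in replicate 6. In TPM, Plat was instead highest in replicate 5, at 397.7 TPM against 366.1 TPM in replicate 6.

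**Figure D5:**
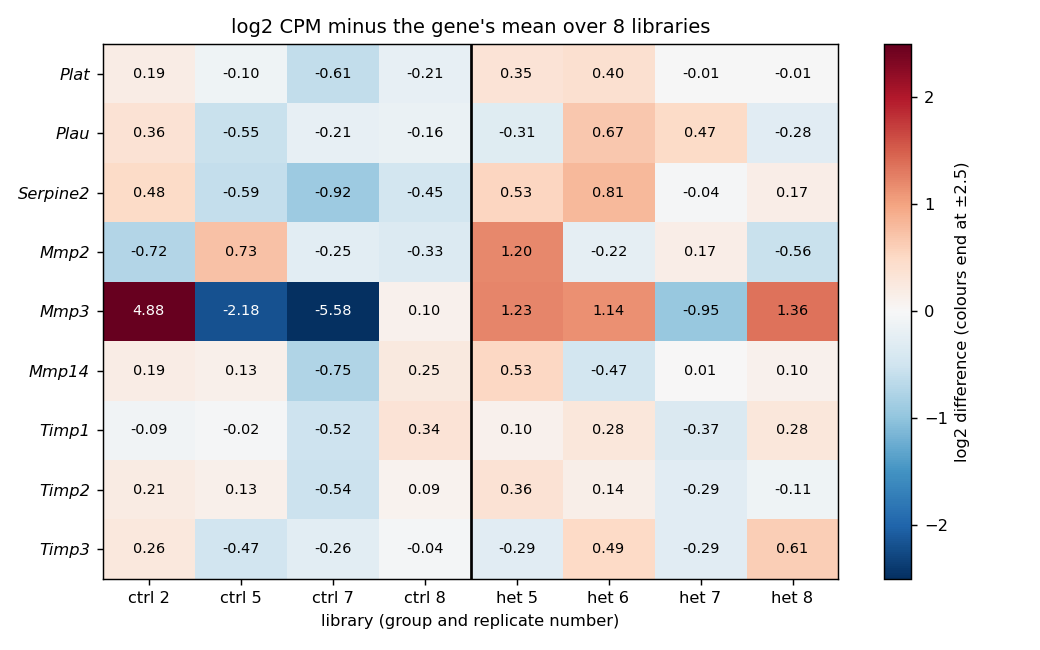
Log2 CPM of each gene (rows) in each library (columns) minus its mean over the 8 libraries, in colour and as printed values. Control replicate 7 is below the mean for all 9 genes, from -0.21 for Plau to -5.58 for Mmp3, and Mmp3 in control replicate 2 is 4.88 above its mean.

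For each member, the genes whose log2 CPM followed it most closely over the 8 libraries were sought among 7907 genes with a symbol and a mean of at least 10 CPM. They are given as descriptions without a p, since they are the extremes of many genes, and same-numbered libraries resemble each other. Serpine2 was followed by Cmip (Pearson's r 0.949, Spearman's rho 0.929), by its own target Plat (r 0.944, rho 0.952) and by Zc3hav1 (r 0.943, rho 0.881). Without the 2 libraries farthest from the median of Serpine2, control replicate 7 and RhoA het replicate 6, the r with Plat was 0.899. Plat was followed by Nectin3 (r 0.981, rho 1), Elf1 and Cmip. Mmp2 was followed by Lpar4, Spry2 and Ptgfrn (r 0.964 to 0.971), and without both libraries numbered 5 these values fell to between 0.767 and 0.857. Mmp3 was followed by Spon1, Inafm2 and Cxcl14 (r 0.955 to 0.962), whose r without control replicates 2 and 7 was 0.773 to 0.891. Spon1 was at 16.4 TPM in control replicate 2 and at most at 12.5 TPM elsewhere, a far smaller contrast than that of Mmp3. Timp3 was followed by Ebf1, Plpp3 and B4galt1 (r 0.978 to 0.987), Plau by Medag, Rhoj and Mpp2 (r 0.929 to 0.941), Mmp14 by Atp2a2, Kcmf1 and Ndfip2 (r 0.965 to 0.971), Timp1 by Phlpp1, Slc6a6 and Bgn (r 0.936 to 0.960), and Timp2 by Usp32, Ube2o and Zdhhc18 (r 0.937 to 0.976).

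The rest of the pathway was read from a list of 66 other genes of plasminogen activation, metalloproteases, ADAM and ADAMTS proteases and their inhibitors. Of these, 47 passed the filter, and 0 of the 47 were called in either direction over 8 libraries (edgeR; 0 also in DESeq2), with 26 above and 21 below 0 and a median log2 fold change of 0.068. At an unadjusted p under 0.05, 4 were higher and 1 lower, where 263 and 109 of all 15660 genes were. With the replicate block 6 of the 47 had such a p, 4 of them higher, where 827 of 15714 genes (5.26%) did. The 3 higher genes with the smallest p were Adamts10 (log2 fold change 0.32, SE 0.11), Adam9 (0.28, SE 0.10), a sheddase of membrane proteins, and Timp4 (1.92, SE 0.74). The 3 genes below 0 with the smallest p, of which only Fap had one under 0.05, were Fap (-0.42, SE 0.18), a fibroblast peptidase, Anxa2 (-0.21, SE 0.15), a plasminogen receptor subunit, and Adamts12 (-0.20, SE 0.16), and all 6 had an adjusted p of 1 in edgeR. Timp4 was at 15.4 TPM in RhoA het replicate 6, which also had the most endothelial and erythroid RNA, and between 0.556 and 2.95 TPM elsewhere. Over the 6 libraries of the pairs, with the block, the log2 fold change of Timp4 was 0.30. The most abundant genes of the list were the complement and kallikrein inhibitor Serping1 (1708 TPM on average), the plasminogen receptor subunits S100a10 (1487 TPM) and Anxa2 (841.5 TPM). Of the 12 ADAMTS genes tested, 9 were above 0 over 8 libraries and 9 with the replicate block. Of the 4 secreted metalloproteases tested that are not members, 4 were above 0 over 8 libraries and 1 with the replicate block, and of the 4 membrane metalloproteases 1 and 3 were. The 19 genes under the filter reached at most 8.93 TPM and included Plg, which encodes plasminogen itself, with at most 1 fragment in a library, and Mmp9, the other gelatinase, with at most 63.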

How the data were processed

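RNA of 8 libraries of sorted muscle stem cells was extracted with Trizol and amplified by template switching with a low-input kit, per the labels' protocols. Per the file headers, the deposited counts are fragments per gene from featureCounts 1.6.4 counting read pairs on exons of GENCODE mouse release 34 on mm39, after STAR alignment. The header sets no strand option and none for multi-mapping or overlapping reads. It names 10 alignment files, and the table holds 8; the others were not analysed here. The deposited TPM equal counts per length scaled per library, with a largest relative difference of 5e-15. Symbols came from GENCODE release M21 by identifier (51884 of 57180 genes).

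Counts were filtered with edgeR's filterByExpr (15660 genes left), scaled by TMM and tested with edgeR 4.0.16's quasi-likelihood F test in R 4.3.3, without covariates, with Benjamini-Hochberg adjustment over all genes. Log2 CPM used a prior count of 2. Exact permutation tests covered the 70 assignments of libraries (smallest p 0.0286). Same-numbered libraries' deviations from group means correlated at 0.544, 0.231 and 0.488 for numbers 5, 7 and 8, each over 0.1, so the numbers were taken to pair them. The labels do not say what a number marks. Alternatives used DESeq2 1.42.0 and limma 3.58.1, other scalings and filters, the replicate block and each library left out. Members, lists and alternatives were chosen with earlier results of these data known. Named genes were Rhoa, the 9 members, the other pathway genes past the threshold, the 3 per direction with the smallest p, the 3 most abundant, and the 3 genes most like each member. Plaur, Plg and Mmp9 were added after their values were seen.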

Additional observations from a re-analysis of the deposited data

Results flagged for a closer look

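Among 14 checks of a library against the rest of its group (the 7 members not picked, in 2 groups of 4), 1 had a gap past Dixon's 95% critical value, where chance gives about 0.7. Mmp14 was at 27.1 CPM in control replicate 7, and the next control library was at 50 CPM. The gap of Mmp3 in control replicate 2, at 130.7 CPM with the next control library at 4.65 CPM, was past that value too. Mmp3 was picked on the other 3 control libraries, so its gap is a description and no test.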

How the results depend on the processing

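None of the 7 members not picked and no other pathway gene was called under any of the 19 alternatives. The count over all genes was 0 in each except the replicate block over pairs 5, 7 and 8, which gave 2; the same 6 libraries without the block gave 0, and leaving out each library in turn gave 0. The block changed no call of a member. Plat, Plau, Serpine2, Timp1 and Timp3 kept their direction in all 19. The log2 fold change of Mmp3 turned positive in 7: 2.28 in limma-voom, 0.78 and 1.67 in limma on log2(TPM + 1) and log2(TPM + 0.1), 2.73 with the block, 2.08 in these 6 libraries without it, 2.68 with the number as a random effect, and 2.19 without control replicate 2. Leaving out single libraries gave -2.45 to 2.19 for Mmp3, -0.14 to 0.73 for Mmp2, -0.11 to 0.22 for Mmp14, -0.10 to 0.14 for Timp2 and 0.51 to 1.05 for Serpine2. Without control replicate 7, Mmp14 was -0.11, Timp2 -0.10 and the median of the other pathway genes -0.077. Without RhoA het replicate 5, Mmp2 was -0.14, Mmp14 -0.11, Timp2 -0.080 and that median -0.036; over all libraries left out in turn that median ran from -0.077 to 0.15. Counts under about 100 fragments, as for Mmp3 in 4 libraries, limit the precision of its ratios.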
